A study of Rattus norvegicus with 6 samples.

Results

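Type I interferon induces a set of genes whose products act against viruses. Among them are the IFIT proteins, which carry tetratricopeptide repeats and bind viral RNA or each other, and ISG15, a small protein built like ubiquitin that is joined to other proteins. ISG15 is activated by the E1 enzyme Uba7, passed to the E2 enzyme Ube2l6 and attached by a HECT ligase, which is Herc6 in rodents, and the protease Usp18 takes it off again and also dampens signalling at the interferon receptor. The 8 genes described here are Ifit2, Ifit3, these 5 genes of the ISG15 cycle (Isg15, Uba7, Ube2l6, Herc6 and Usp18) and Isg20, an interferon-induced exoribonuclease that belongs to neither system. They were taken by symbol from a count table of 20609 genes, and each had 1 row. The set was drawn up with earlier results of the same control and PCBP1-OE libraries in view, so the differences between these groups are given as a description.

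The libraries are described as coming from PC12 cells, a line from a rat pheochromocytoma. Of these, 3 are controls and 3 are from cells transfected with a plasmid that overexpresses PCBP-1 (PCBP1-OE). PCBP-1 is an RNA-binding protein, and its plasmid carried an EGFP tag. Whether the controls received a plasmid with this tag is not given in the sources used here. No group was labelled as untransfected, and the harvest time of the RNA-seq cells is not given in the sources used here. The study's introduction calls the overexpression stable, while its methods describe a plasmid transfection. The Pcbp1 gene was not analysed here, so the overexpression itself was not checked in these libraries. The libraries held 19730209 to 22315623 counts each. The labels call the samples by number only, and p-values measure the spread between these samples.

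The labelled cell type was checked against its markers. Of 12 chromaffin and PC12 markers, 11 were in the table and 4 had enough counts for a test. Tyrosine hydroxylase (Th) had 141 to 185 counts per library. Also tested were Snap25 with 197 to 266 counts, Gata3 with 26 to 38 and Slc18a1 with 17 to 28. Chromogranin A (Chga) had 0 to 3 counts, dopamine beta-hydroxylase (Dbh) 0 to 5 and Ddc 0 to 4. These were among the 7 markers with too few counts. Most chromaffin and PC12 markers in the table thus did not bear out the labelled cell type, although Th and Snap25 were counted. The reason was not tested. Pdgfra, from the fibroblast and endothelial list, had 3939 to 4941 counts, while Dcn of the same list had 0 to 5. Leukocyte markers summed to 49.5 to 56.1 CPM (counts per M counts, with libraries scaled by the trimmed mean method, TMM) in controls and 42.7 to 49.2 in PCBP1-OE, and Ptprc, the common leukocyte antigen, had 0 to 3 counts in each library. Fibroblast and endothelial markers summed to 256 to 259 CPM in controls and 233 to 242 in PCBP1-OE. Most of this sum was Pdgfra, at 220 to 226 CPM in controls and 195 to 208 in PCBP1-OE. Most of the leukocyte sum was Cd14, at 36.6 to 42.5 CPM in controls and 31.9 to 36.9 in PCBP1-OE. By edgeR's quasi-likelihood test, 0 genes of the 3 marker lists passed a false discovery rate (FDR, the adjusted p) of 0.05 between the groups. In that test 1 leukocyte and 1 fibroblast marker, both lower in PCBP1-OE, had an unadjusted p under 0.05. Low unadjusted p-values were common in it: of all 12624 genes tested, 4090 had one of 0.0691 or less, the value of Herc6. Cd14 and Pdgfra each passed the FDR in 2 of the alternatives, Pdgfra by DESeq2 among them. Their part in the results below was not tested. In bulk RNA, fewer cells of a type and less RNA per cell cannot be told apart.

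The promoters were searched for the elements that interferon-activated factors bind. RefSeq windows on the GRCr8 assembly were at hand for 5 of the 8 genes (Ifit3, Uba7, Ube2l6, Herc6 and Isg20), and the 250 bases before each annotated start were searched on both strands. The core of the interferon-stimulated response element, GAAANNGAAA or its reverse complement TTTCNNTTTC, was found in 2 of the 5, Ifit3 and Isg20. It stood in 3.41% of all 33469 windows of the same length. The gamma-activated site TTCNNNGAA, which reads the same on both strands, was in 0 of the 5 and in 7.67% of all windows. The stretches around the element are shown because they are the matches found among the 5 windows, with the matched bases in capitals; both lie on the plus strand of chromosome 1, at chr1:241527237-241527325 for Ifit3 and chr1:142239922-142240021 for Isg20.
Ifit3: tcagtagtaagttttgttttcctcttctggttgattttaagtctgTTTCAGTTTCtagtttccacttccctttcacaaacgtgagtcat
Isg20: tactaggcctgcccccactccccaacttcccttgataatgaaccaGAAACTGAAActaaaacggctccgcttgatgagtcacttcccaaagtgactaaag
In Ifit3 the element covered the bases 44 to 35 before the start, in the reverse orientation, and in Isg20 the bases 92 to 83 before it. A match describes letters only, and the windows of Uba7, Ube2l6 and Herc6 do not hold these letters.

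The question was how the level of each gene in PCBP1-OE cells compared with that in control cells. Of the 8 genes, 5 were higher in PCBP1-OE at an FDR of 0.05 or less (Ifit2, Ifit3, Isg15, Usp18 and Isg20) and 0 were lower, by edgeR's quasi-likelihood test over the 12624 genes with enough counts; 0 were lower at an unadjusted p under 0.05 either, or by DESeq2. Over all genes tested the same threshold was passed by 9.45%, with 4.45% higher and 5.0% lower. The genes were picked from this comparison, so the count is not evidence about the set. The enzymes that activate, carry and attach ISG15 (Uba7, Ube2l6 and Herc6) did not pass. The median log2 fold change of the 8 genes was 0.45, against 0.0029 over all genes tested. The 3 genes that did not pass had 40 to 182 counts per library, and Isg15, which did, had 81 to 185.

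**Figure D1:**
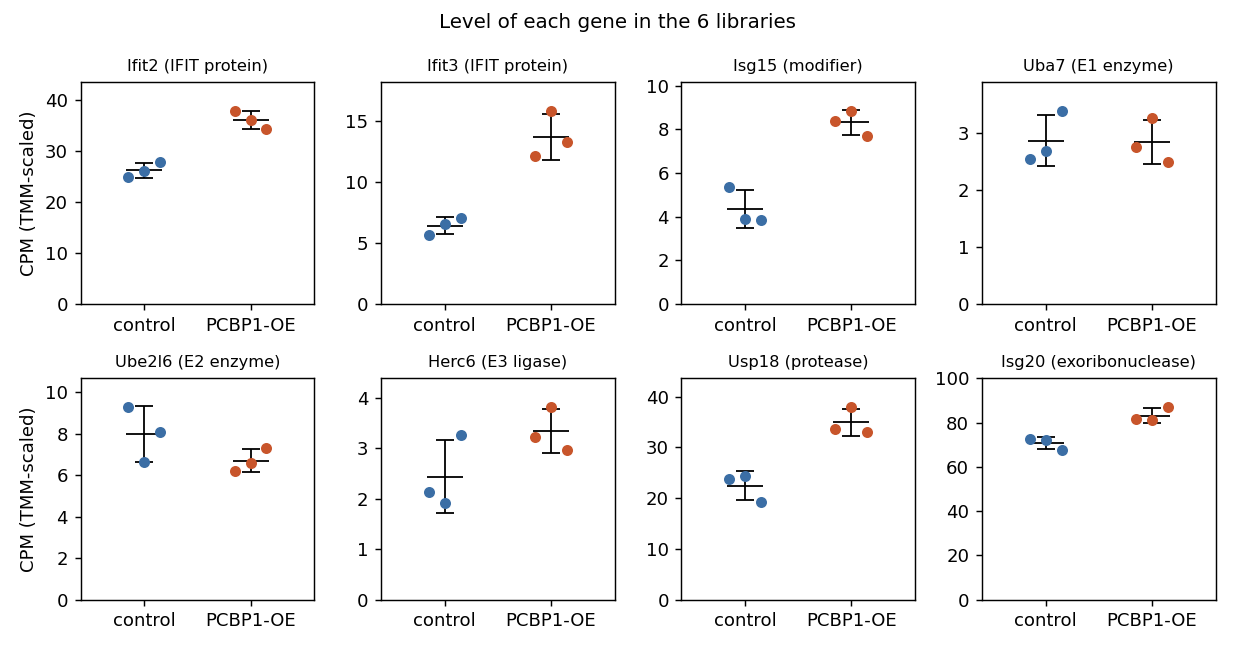
Level of each gene in CPM (TMM-scaled, linear axis from 0) in the 3 control and 3 PCBP1-OE libraries; points are libraries, the bar and whiskers the mean ± SD (n = 3). All PCBP1-OE points lie above all control points for Ifit2, Ifit3, Isg15, Usp18 and Isg20, and the groups overlap for Uba7, Ube2l6 and Herc6.

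Ifit3, whose protein binds other IFIT proteins and an adaptor of the antiviral response, was counted 111, 137 and 158 times in controls, against 267, 319 and 260 times in PCBP1-OE. Scaled to CPM, it was at 5.66, 6.56 and 7.05 in controls, against 12.1, 15.8 and 13.3 in PCBP1-OE. The groups did not overlap, and the lowest PCBP1-OE library was well above the highest control. The means were 6.42 ± 0.703 and 13.7 ± 1.89 CPM (SD, n = 3 each), a 2.13-fold difference and a log2 fold change of 1.09 (standard error, SE, 0.13, 95% interval 0.80 to 1.38). Ifit3 was the 1 gene of the 8 that also reached a 2-fold change, which 0.19% of all genes tested did with an FDR of 0.05 or less.

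Ifit2, an RNA-binding relative of Ifit3, was at 24.8, 26.1 and 27.7 CPM in controls, against 37.8, 36.0 and 34.4 in PCBP1-OE. Here too the groups did not overlap, and the replicates lay close together. The log2 fold change was 0.46 (SE 0.07, 95% interval 0.31 to 0.61), which is 1.37-fold. The intervals of Ifit2 and Ifit3 did not overlap, and counts of Ifit3 per 100 counts of Ifit2 went from 22.8, 25.1 and 25.4 in controls to 32.1, 43.9 and 38.6 in PCBP1-OE. This ratio does not depend on how the libraries are scaled. It was higher in each PCBP1-OE library than in every control, by 1.56-fold in the mean.

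The IFIT genes lie side by side on rat chromosome 1. In the GRCr8 gene order Ifit2 and Ifit3 are followed by Ifit1bl and Ifit1, with Lipa before them and Slc16a12 and Pank1 after. Ifit1bl, listed in the count table as Ifit1lb, had 44, 25 and 39 counts in controls, against 58, 27 and 33 in PCBP1-OE. The log2 fold change was 0.14 (SE 0.30, 95% interval -0.50 to 0.78). Ifit1, the IFIT that recognises foreign RNA ends, had 0, 4 and 1 counts in controls, against 1, 0 and 0 in PCBP1-OE and was too low for a test. Neither gene could be resolved at this depth. Among the flanking genes, Lipa had a log2 fold change of -0.04 (SE 0.04), Pank1 0.18 (SE 0.10) and Kif20b -0.03 (SE 0.06), and none passed an FDR of 0.05; these neighbours were chosen after the values of the IFIT genes were known. Reads of near-identical copies in the family may be split or lost by counting of uniquely mapped reads.

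Isg15, the modifier itself, was counted 105, 81 and 86 times in controls, against 185, 178 and 151 times in PCBP1-OE. In CPM the libraries were at 5.35, 3.88 and 3.84 in controls, against 8.39, 8.82 and 7.71 in PCBP1-OE. Control replicate 1 lay above the other 2 controls but below every PCBP1-OE library. The difference was 1.91-fold, with a log2 fold change of 0.94 (SE 0.16, 95% interval 0.60 to 1.27).

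Usp18, the protease that removes ISG15, followed in the same direction. It was at 23.8, 24.4 and 19.3 CPM in controls, against 33.7, 38.0 and 33.1 in PCBP1-OE, and the groups did not overlap. Its log2 fold change was 0.64 (SE 0.09, 95% interval 0.43 to 0.84), or 1.55-fold. The intervals of Isg15 and Usp18 overlapped. The counts of Isg15 per 100 counts of Usp18 were 22.5, 15.9 and 19.9 in controls, against 24.9, 23.2 and 23.3 in PCBP1-OE, 1.23-fold in the mean and without overlap.

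Uba7, the E1 enzyme that starts ISG15 conjugation, had 50, 56 and 76 counts in controls, against 61, 66 and 49 in PCBP1-OE. Its CPM values of 2.55, 2.68 and 3.39 in controls, against 2.77, 3.27 and 2.50 in PCBP1-OE lay in the same range. The log2 fold change was -0.02 (SE 0.20), and its sign turned under upper-quartile scaling and when single libraries were left out. The 95% interval of -0.44 to 0.41 leaves room for a change of either direction up to about the size seen for Ifit2.

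Ube2l6, the E2 enzyme, was at 9.28, 6.61 and 8.07 CPM in controls, against 6.22, 6.59 and 7.30 in PCBP1-OE. The groups overlapped through control replicate 2. The log2 fold change was -0.25 (SE 0.15, 95% interval -0.57 to 0.06), and it did not pass the threshold. The interval lies below the lower ends of those of Ifit2, Ifit3, Isg15, Usp18 and Isg20.

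Herc6, the ligase of the cycle in rodents, had 42, 40 and 73 counts in controls, against 71, 77 and 58 in PCBP1-OE. In CPM it was at 2.14, 1.92 and 3.26 in controls, against 3.22, 3.82 and 2.96 in PCBP1-OE. Control replicate 3 lay above 2 of the PCBP1-OE libraries, while the other 2 controls lay below all of them. The log2 fold change was 0.44 (SE 0.22, 95% interval -0.04 to 0.93), a value near that of Ifit2 but with an interval that includes 0. Without control replicate 3 it was 0.72 and passed the threshold. The coefficient of variation of Herc6 among controls was 29.4%, against 13.9% from counting alone; for Ifit2 these were 5.64% and 4.26%.

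**Figure D2:**
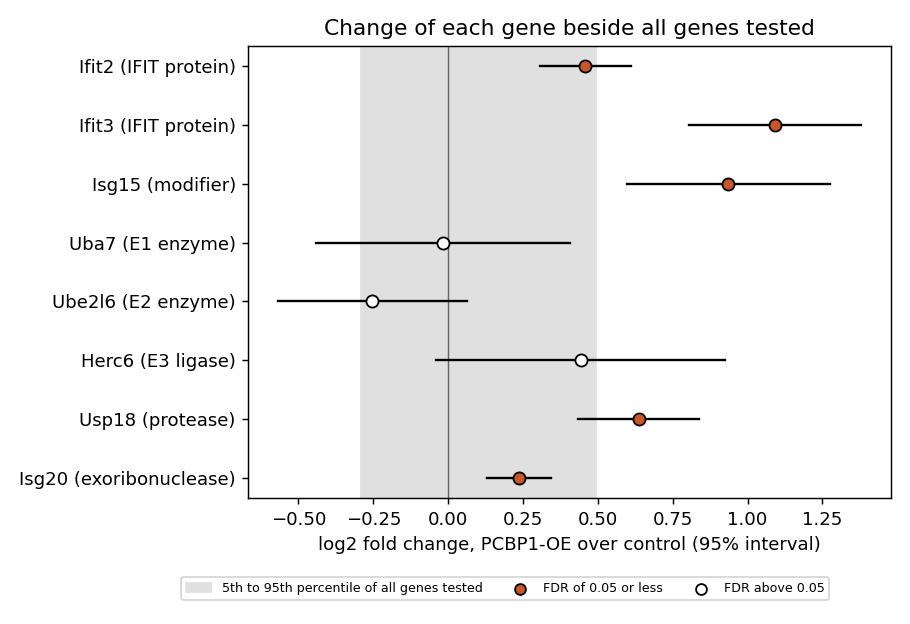
Log2 fold change of each gene (PCBP1-OE over control, horizontal axis) with its 95% interval; filled points passed an FDR of 0.05, and the grey band spans the 5th to 95th percentile of all genes tested, -0.29 to 0.49. Ifit3, Isg15 and Usp18 lie above the band, Ifit2, Herc6, Isg20, Uba7 and Ube2l6 within it.

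The message of the modifier was also set against those of the enzymes of its cycle. Isg15 counts per 100 Ube2l6 counts were 57.7, 58.7 and 47.5 in controls, against 135, 134 and 106 in PCBP1-OE, 2.29-fold in the mean. Per 100 Uba7 counts they were 210, 145 and 113 in controls, against 303, 270 and 308 in PCBP1-OE, 1.88-fold in the mean. Neither ratio overlapped between the groups. Per 100 Herc6 counts the ratio was 250, 203 and 118 in controls, against 261, 231 and 260 in PCBP1-OE, and these overlapped. The ratios compare groups and not levels between genes, since no transcript lengths were used.

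**Figure D3:**
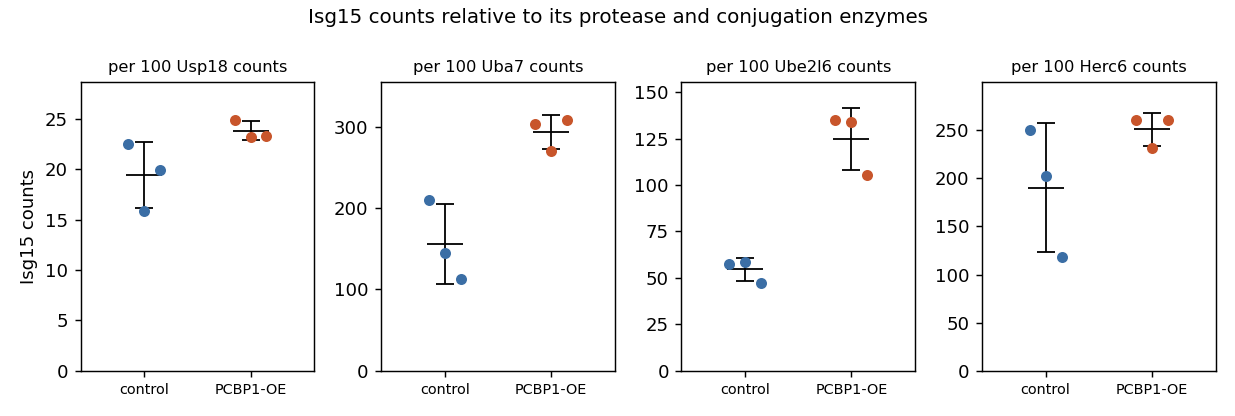
Isg15 counts per 100 counts of Usp18, Uba7, Ube2l6 and Herc6 in each library (linear axes from 0); points are libraries, bar and whiskers the mean ± SD (n = 3). The ratio to Ube2l6 runs from 47.5 to 58.7 in controls and from 106 to 135 in PCBP1-OE, while the ratio to Herc6 overlaps between groups.

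Isg20, the exoribonuclease, was the most deeply counted of the 8 genes, with 1420, 1502 and 1518 counts in controls, against 1796, 1637 and 1706 in PCBP1-OE. In CPM it was at 72.4, 72.0 and 67.7 in controls, against 81.5, 81.1 and 87.1 in PCBP1-OE, without overlap. The difference was small, a log2 fold change of 0.24 (SE 0.05, 95% interval 0.13 to 0.34), or 1.18-fold. Its percentile among all fold changes tested was 83.8, against 99.7 for Ifit3 and 99.4 for Isg15. Its coefficient of variation was 3.69% in controls and 4.01% in PCBP1-OE, the lowest of the 8 genes in both groups.

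Across the 8 genes, 5 had groups that did not overlap, and in all 5 the PCBP1-OE libraries were the higher ones; over all genes tested this share was 30.6%, with 14.1% higher and 16.5% lower. Ordered by log2 fold change, the genes ran from Ifit3 over Isg15, Usp18, Ifit2, Herc6 and Isg20 to Uba7 and Ube2l6. Each neighbour in this order had an interval that overlapped the next. Summed over the 8 genes, the libraries had 140 to 146 CPM in controls and 186 to 193 in PCBP1-OE.

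The calls rested on single libraries to a different degree. Ifit3 and Usp18 passed an FDR of 0.05 in all 15 alternatives, Ifit2 in 14, Isg15 in 13 and Isg20 in 11. Isg15 was not called without control replicate 2, and Isg20 lost its call in the same case and without PCBP1-OE replicate 1 or 2. The count of called genes among the 8 was 3 without control replicate 2 and 6 without control replicate 3, when the share of all genes called was 0.375% and 22.3%.

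**Figure D4:**
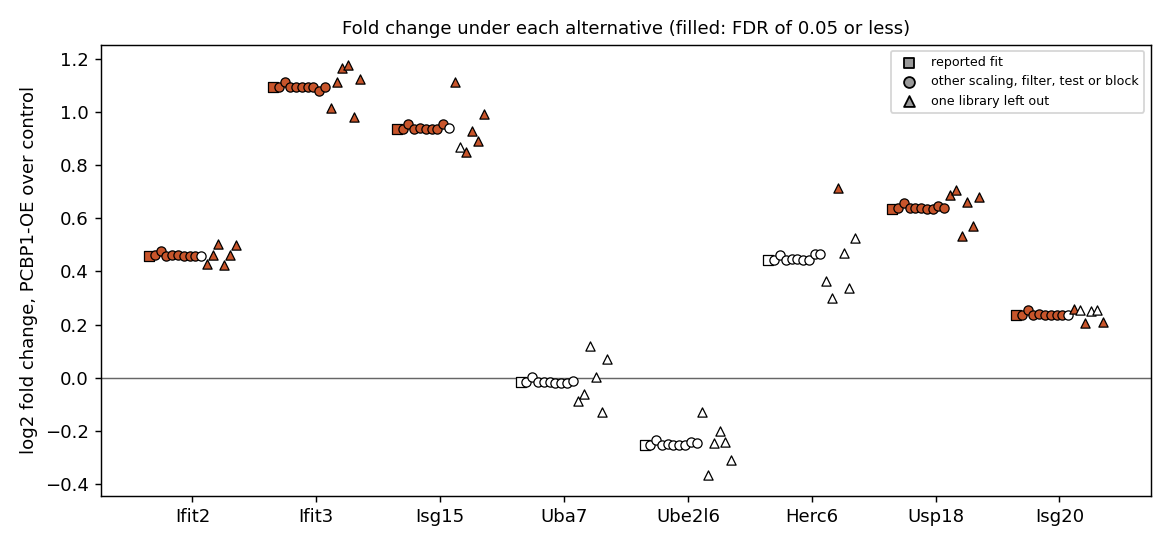
Log2 fold change of each gene (vertical axis, PCBP1-OE over control) in the reported fit (square), with another scaling, filter, test or the replicate block (circles) and with 1 library left out (triangles); filled symbols passed an FDR of 0.05. Ifit3 stays between 0.98 and 1.18, while Herc6 runs from 0.30 to 0.72 and Uba7 lies on both sides of 0.

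Next, 4 lists of related genes were examined with the same fit. The first held 19 further genes tied to IFIT proteins or to ISG15. Among them were other IFIT genes, other HERC proteins, the ligases Trim25 and Arih1, E2 enzymes, and proteases that can act on ISG15. Of these, 15 were tested, with a median log2 fold change of 0.08, 11 above 0 and 4 below. Herc1, a giant HECT ligase, was the 1 gene called. It rose by a log2 fold change of 0.21 (SE 0.05, adjusted p = 0.0255, the quasi-likelihood test of edgeR, adjusted by Benjamini-Hochberg). It passed in 3 of the 6 fits with 1 library left out. Trim25, a ligase of the RIG-I pathway that is itself modified by ISG15, had 72, 82 and 66 counts in controls, against 113, 101 and 88 in PCBP1-OE. The difference of 0.48 on the log2 scale (SE 0.17) did not pass (adjusted p = 0.0825, same edgeR test), and it was singled out after its values were seen. The tested share called, 1 of 15, was near the 9.45% of all genes.

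The second list held ubiquitin, other ubiquitin-like modifiers and their E1 and E2 enzymes, of which 21 of 23 were tested. Their median log2 fold change was -0.02, with 9 above 0 and 12 below. At an FDR of 0.05, 3 fell and 0 rose, against 5.0% lower and 4.45% higher over all genes tested. At an unadjusted p under 0.05, 5 were higher and 5 lower. Such p-values were common over all genes, as given above for the marker lists. DESeq2 called 1 higher, Uba2. Nedd8, the modifier of cullins, fell by 0.25 (SE 0.06, adjusted p = 0.0221, same edgeR test), and Ufc1, the E2 enzyme for the modifier Ufm1, fell by 0.20 (SE 0.05, adjusted p = 0.0354, same edgeR test). Ube2l3, the E2 enzyme most like Ube2l6, had a log2 fold change of -0.08 (SE 0.05), and Uba1, the main ubiquitin E1, -0.04 (SE 0.04). The calls of Nedd8 and Ufc1 were kept in 2 of the 6 fits with 1 library left out, those without control replicate 3 or PCBP1-OE replicate 3.

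The third list followed the interferon signal from ligand to nucleus. Of 21 genes 19 were tested, with a median of 0.13, 11 above 0 and 8 below. At an FDR of 0.05, 2 rose and 2 fell, against 4.45% higher and 5.0% lower over all genes tested. At an unadjusted p under 0.05 in the same fit, 7 were higher and 3 lower. Over all 12624 genes, 4090 had an unadjusted p of 0.0691 or less by the same edgeR test. The called split was 4 higher and 0 lower under upper-quartile scaling, 2 and 0 with limma-voom, and 3 and 1 with DESeq2. It was 2 and 1 under RLE scaling, 5 and 2 without a filter, and 4 and 3 with the likelihood-ratio and exact tests. Without control replicate 3 it was 6 and 3, and without PCBP1-OE replicate 3 it was 2 and 0. Irf9, a DNA-binding factor of the type I interferon response, rose. It had 450, 481 and 565 counts in controls, against 646, 782 and 686 in PCBP1-OE; this is 0.53 on the log2 scale (SE 0.10, adjusted p = 0.00977, same edgeR test). Stat2, a signal transducer that partners Irf9, had a log2 fold change of 0.13 (SE 0.06) and did not pass.

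Socs1, which inhibits JAK kinases, had 134, 180 and 146 counts in controls, against 102, 107 and 104 in PCBP1-OE, and fell by 0.53 on the log2 scale (SE 0.15, adjusted p = 0.0461, same edgeR test). Ifngr1, a chain of the type II interferon receptor, fell by 0.16 (SE 0.05, adjusted p = 0.0496, same edgeR test). With 1 library left out, Irf9 was kept in 4 of 6 fits, and Socs1 and Ifngr1 in 1 each. Over all 15 alternatives Irf9 passed in 12, Socs1 in 7 and Ifngr1 in 3; Ifngr1 lost its call under RLE and upper-quartile scaling, without a filter, with the stricter filter (1 CPM or more in 3 or more libraries), with DESeq2, with limma-voom and with the replicate block. The receptor chains Ifnar1 and Ifnar2 had log2 fold changes of -0.07 (SE 0.07) and 0.20 (SE 0.09), and Tyk2, the kinase of Ifnar1, -0.18 (SE 0.09). Interferon beta (Ifnb1) had 0, 0 and 1 counts in controls, against 5, 1 and 1 in PCBP1-OE, too few for a test, so its level was not resolved at this depth. Irf7, named after its values were seen, had a log2 fold change of 0.73 (SE 0.23, adjusted p = 0.0593, same edgeR test).

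The fourth list held exoribonucleases of the DEDD type, the family of Isg20, and 12 of its 13 genes were tested. The median was 0.07, with 8 above 0 and 4 below. Over all genes tested 9.45% passed an FDR of 0.05, and 1 of the 12 did here. Rexo2, an enzyme that degrades short RNA in mitochondria and the cytosol, fell by 0.18 on the log2 scale (SE 0.05, adjusted p = 0.0488, same edgeR test) and was the 1 gene called; it passed in 1 of the 6 fits with 1 library left out. Isg20l2 and Aen, the closest relatives of Isg20 on the list, had 0.13 (SE 0.09) and 0.15 (SE 0.05). Neither passed the threshold in this fit. Under upper-quartile scaling the 1 call of the list was Aen, higher, and Rexo2 was not called; DESeq2, the likelihood-ratio and exact tests and the stricter filter called both genes, Aen higher and Rexo2 lower.

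**Figure D5:**
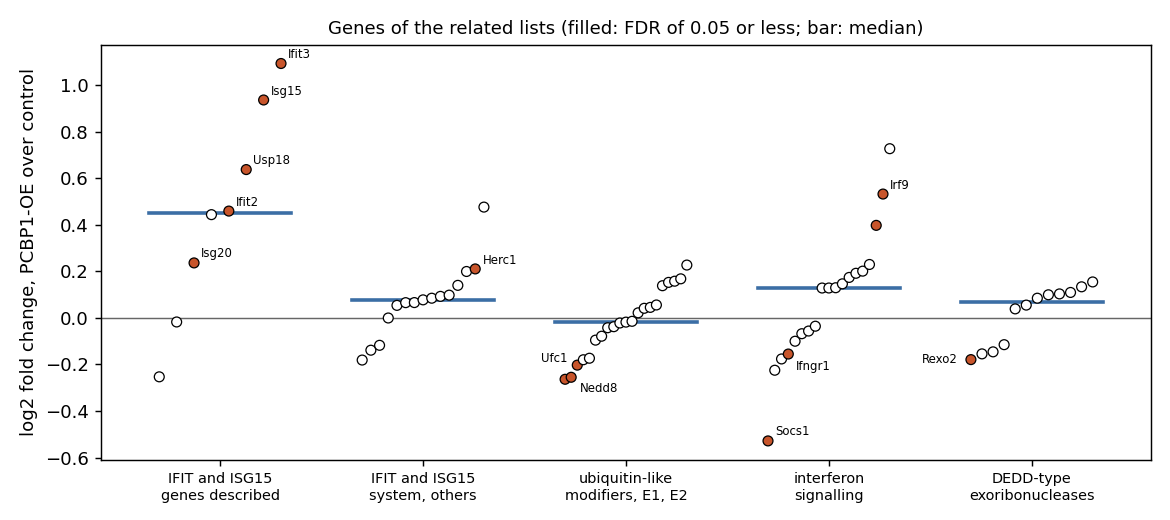
Log2 fold change (vertical axis, PCBP1-OE over control) of the 8 genes and of the tested genes of the 4 related lists; each point is a gene, filled points passed an FDR of 0.05, with most of them named, and the bar is the median of its list. The medians of the lists lie between -0.02 and 0.13, that of the 8 genes at 0.45, and the 8 genes had been chosen with these values known.

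The pattern of the 8 genes over the libraries was also compared with that of every other gene. The mean of their standardised levels was -0.51, -0.81 and -0.31 in controls, against 0.41, 0.82 and 0.41 in PCBP1-OE. Pearson's r of each gene with the mean of the other 7, over the 6 libraries, was 0.94 for Ifit3, 0.89 for Ifit2, 0.87 for Isg15, 0.80 for Herc6, 0.78 for Usp18 and 0.70 for Isg20. Uba7 had 0.05 and Ube2l6 -0.60. These values describe 6 libraries that share the group difference and carry no p. Among 11509 further genes with a mean of at least 1 CPM, 561 had an r of 0.9 or above with the mean pattern. The closest were Pde12 (0.999), Yes1 (0.997), Mlxip (0.996), Arid2 (0.994) and Nfia (0.993). Of these, Yes1, a tyrosine kinase, had 58, 55 and 82 counts in controls, against 122, 137 and 108 in PCBP1-OE. It was chosen for a pattern that holds the group difference, so its level is given with no test.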

How the data were processed

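The 6 libraries of poly-A RNA were assigned to control or PCBP1-OE by title; the labels give no batch. The deposited values are raw counts per gene. The study's methods name FASTX-Toolkit for cleaning, TopHat2 for alignment to Rnor_6.0 and counting of uniquely mapped reads, and no counting tool or strand setting. The submitters' processing notes name GRCh38, bcl2fastq, TopHat2 and edgeR, although the gene identifiers are of rat, and the labels and the methods name different library kits. Depth was 19730209 to 22315623 counts.

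In R 4.3.3, edgeR 4.0.16 (quasi-likelihood test, TMM, filterByExpr at a minimum count of 10 and total of 15) tested 12624 genes and dropped 7985. Adjusted p is by Benjamini-Hochberg over all tested genes, and an SE is the log2 fold change over the root of F. The script was tested on simulated data. Alternatives were RLE and upper-quartile scaling, 2 filters, DESeq2 1.42.0, edgeR's likelihood-ratio and exact tests, limma-voom (limma 3.58.1), a replicate block and each library left out.

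The members and lists were chosen with earlier results of these data known. Named are the 8 members, listed genes past an FDR of 0.05 and the 5 genes most like the members' mean in log2(CPM + 1) with a mean of at least 1 CPM; some listed genes are counted but not reported by name here. Symbols were matched directly or by RefSeq synonym (GRCr8), whose gene spans hold introns, so levels per kilobase were not computed. Promoter windows were read in Python 3.11.15.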

Additional observations from a re-analysis of the deposited data

How the results depend on the processing

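Of the 8 genes, 7 kept the direction of their log2 fold change in all 15 alternatives; Uba7, never called, turned to 0.0022 under upper-quartile scaling and ranged from -0.13 to 0.12 with 1 library left out. All genes called numbered 2090 without a filter and 16 with the replicate block, against 1193; leaving out 1 library gave 48 to 2860. The split of 562 higher and 631 lower became 655 and 427 with upper-quartile scaling, and the 5 called members were higher in both. Leaving out 1 library gave 3 to 6 called members, 0 to 2 of them past 2-fold. The causes were not tested.

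For the IFIT and ISG15 list, leaving out 1 library gave 0 to 3 calls. For the ubiquitin-like list the calls were 7 without a filter, 6 with DESeq2, 5 with the likelihood-ratio and exact tests and 0 to 8 with 1 library left out. For interferon signalling they were 7 without a filter and with the likelihood-ratio and exact tests, 2 with limma-voom and 1 to 9 with 1 library left out. For the exoribonucleases they were 0 under RLE scaling, with 3 at an unadjusted p under 0.05, 2 with the stricter filter, DESeq2, the likelihood-ratio and exact tests, and 0 to 2 with 1 library left out. 

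With the replicate number as a block, 2 members were called (Ifit3 and Usp18) and 0 genes of each of the 4 lists by edgeR's quasi-likelihood test. In the order above, 2, 8, 10 and 2 of the listed genes had an unadjusted p under 0.05. The share of all genes at this unadjusted p is not given for the block or RLE fits, so these counts have no background. Deviations of libraries with the same number had r of -0.107 to -0.0813, and 0 of 6 libraries correlated best with its own number. Those with different numbers had r of 0.0151 to 0.0827. No pairing by number was seen, but values this near 0 cannot decide whether the samples were paired, and the labels give numbers only. Herc6 had 40 to 77 counts per library and Uba7 49 to 76, the lowest depth among the 8 genes; the part of depth in their missed calls was not tested.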
